A study of Mus musculus with 2 samples.

Results

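The peroxiredoxins Prdx1, Prdx2, Prdx3, Prdx4, Prdx5 and Prdx6, catalase (Cat), glutathione peroxidase 1 (Gpx1) and the superoxide dismutases Sod1 and Sod2 are 10 of the 20660 mouse genes that RefSeq accessions name on the array. Every non-control probe whose accession maps to a member was taken, which gave 15 probes. Each of the 15 was well above background in both genotypes, so that all 10 genes were measured in WT and in ESAM-KO cells.

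The samples were pre CFU-E, early erythroid progenitors of the bone marrow, sorted by flow cytometry from the femora and tibiae of young adult C57BL/6 mice of 2 genotypes, wild type and ESAM-KO, that had each received a single injection of 120 mg/kg of 5-FU, a drug that kills dividing cells, and were sacrificed 8 days later. ESAM is an adhesion molecule of endothelial cells and blood stem cells, and the mice lack it in all tissues, not in blood cells alone. Both genotypes were treated, so neither group shows untreated marrow. The sorted cells were c-Kit+, endoglin+ and CD150+, CD41Lo, negative for Sca1 and lineage markers, and FCgRII/III-/Lo. Several mice of a genotype were pooled before the sort and each genotype was hybridised to 1 array, which asks how the transcripts of progenitors recovering from 5-FU differ without ESAM, but leaves a difference between the genotypes and one between the pools, sorts or amplifications impossible to tell apart.

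Superoxide, which leaks from the mitochondrial respiratory chain, is turned into hydrogen peroxide by the superoxide dismutases. Catalase, glutathione peroxidases and peroxiredoxins then reduce the peroxide, the peroxiredoxins through a reactive cysteine that thioredoxin or, for Prdx6, glutathione restores. Red cells carry much iron and oxygen and keep large amounts of Prdx2, catalase and Sod1, and mice without Prdx1 or without Prdx2 are known to develop hemolytic anemia.

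Because each genotype was measured once, differences between genotypes have neither an SD nor a p-value. Signals are given as a multiple of the 75th percentile of their array, and a log2 ratio is ESAM-KO over WT of these scaled signals at the brightest probe of the gene. The ± beside a ratio is the error that the scanner software gives for the spots, and does not cover the pools, the sorts or the amplification. This percentile was an intensity of 201.4 for WT and 251.1 for ESAM-KO, so that scaling lowers every log2 ratio by 0.32. Between 57.3% and 61.1% of the spots of an array were well above background. The single probe of the deleted gene, Esam, was dim, with an intensity of 27.4 in WT and 20.6 in ESAM-KO and a log2 ratio of -0.73 ± 0.31, within 2-fold under all 11 alternatives. Whether it lies in the deleted part is not known, so that it does not check the labels. Of the genes that define erythroid progenitors, Kit, Gata1, Klf1 and Epor were well above background and within 2-fold in both, while Ly6a, which encodes the Sca1 that the gate removes, was above background in WT only.

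The antioxidant enzymes differed little between the arrays. None of the 10 genes was past 2-fold in either direction, whereas 15.4% of the 14136 genes with a ratio were, 6.99% higher and 8.43% lower in ESAM-KO. At its brightest probe none was past 1.5-fold either, whereas 33.2% of all genes were, and 5.81% were past 3-fold. The dimmer Prdx1 probe was past 1.5-fold, at 1.90-fold lower in ESAM-KO. The share past 2-fold was smaller among bright genes, so that having none past it does not set the members apart from genes of like signal. Quartiles of signal were formed over the 12615 genes above background on both arrays, whereas the 14136 also hold 1521 genes above it on 1 array only. The 8 members in the brightest quartile were Prdx1, Prdx2, Prdx5, Prdx6, Cat, Gpx1, Sod1 and Sod2. In that quartile 2.63% of the genes were past 2-fold and 13.8% past 1.5-fold. Counted from the dimmest, Prdx3 lay in the third quartile and Prdx4 in the second, where 10.8% and 19.1% of the genes were past 2-fold. The median size of the log2 ratio, without its sign, was 0.19 over the members, 0.26 over the brightest quartile and 0.39 over all genes.

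**Figure D1:**
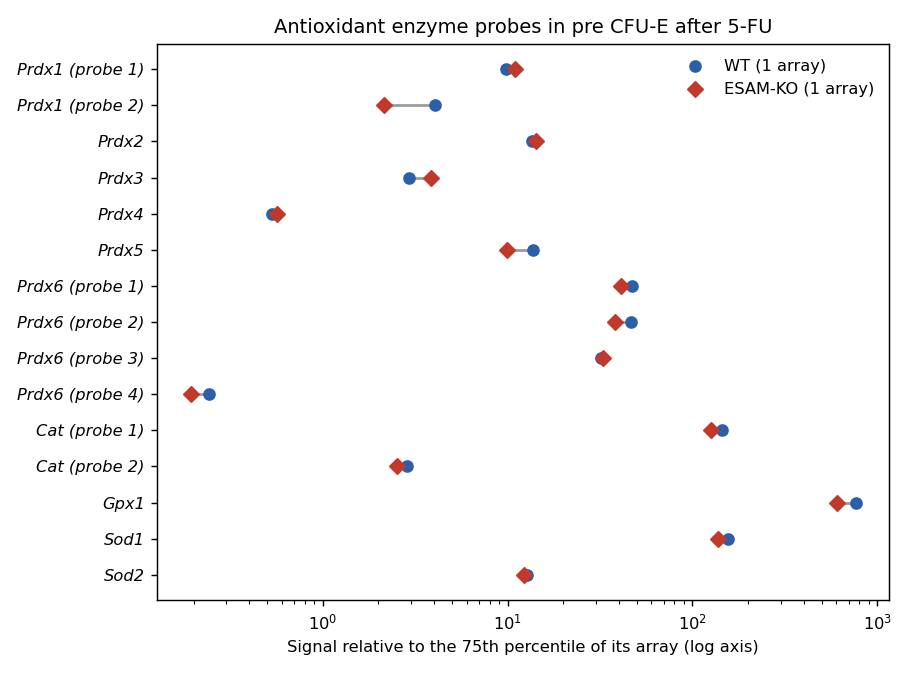
Signal of each of the 15 probes on the WT array (circles) and the ESAM-KO array (diamonds), as a multiple of the 75th percentile of the array, on a log axis; probes of 1 gene are numbered from the brightest, and levels of different probes are not comparable. The 2 symbols of a probe lie close together, with the widest gap at the second probe of Prdx1 (4.06 in WT and 2.14 in ESAM-KO).

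Prdx1 and Prdx2 are the typical peroxiredoxins of the cytosol. The brighter Prdx1 probe (NM_011034) gave 9.83 for WT and 10.9 for ESAM-KO, and thus a log2 ratio of 0.15 ± 0.20. The dimmer probe of the same transcript gave 4.06 for WT and 2.14 for ESAM-KO, and thus a log2 ratio of -0.93 ± 0.20, so that the probes disagree and no single change can be stated for Prdx1. Their ratios lay 1.08 apart on the log2 scale. Among the 3056 genes that had several probes above background, the median range between probes was 0.47, and 21.4% of the genes had a range at least as wide as that of Prdx1. With median scaling the dimmer probe was at -1.06, the 1 setting of 10 tried under which a member probe was past 2-fold.

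Prdx2 (NM_011563), the main peroxiredoxin of red cells, had 1 probe, which read 13.6 in WT and 14.3 in ESAM-KO. Its log2 ratio of 0.08 ± 0.20 was smaller than the scanner error, and its sign depended on the scaling, at -0.05 with median scaling and 0.40 without scaling. In the same comparison, Slc4a1, the anion exchanger of the red cell membrane, was far lower in ESAM-KO, at -2.87 on the log2 scale. Prdx2 was not among the genes past 2-fold.

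Prdx4 (NM_016764), the peroxiredoxin of the endoplasmic reticulum, read 0.53 in WT and 0.57 in ESAM-KO. Its log2 ratio was 0.10 ± 0.21, and -0.03 with median scaling, in which each array is set to its own median signal.

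Prdx3 (NM_007452) works in the mitochondrial matrix and had the highest ratio of the members. Its probe was printed as 10 spots, of which 1 carried an outlier flag and was left out. The 9 remaining spots read between 2.54 and 3.15 in WT, with a median of 2.96, and between 3.65 and 4.11 in ESAM-KO, with a median of 3.89. The ranges did not overlap. The share of other probes with 9 or 10 spots showing such a gap was not counted, so the gap does not single out Prdx3. The log2 ratio was 0.40 ± 0.10 (SD over 9 spots of the same 2 hybridisations), or 1.32-fold, and ran from 0.30 to 0.55 between spots. These spots share their RNA and are not replicates of the genotype. The spread was similar to that of other probes printed as 9 or 10 spots, for which the median SD was 0.12. Over all 14136 genes, 76.2% had a lower ratio than Prdx3.

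**Figure D2:**
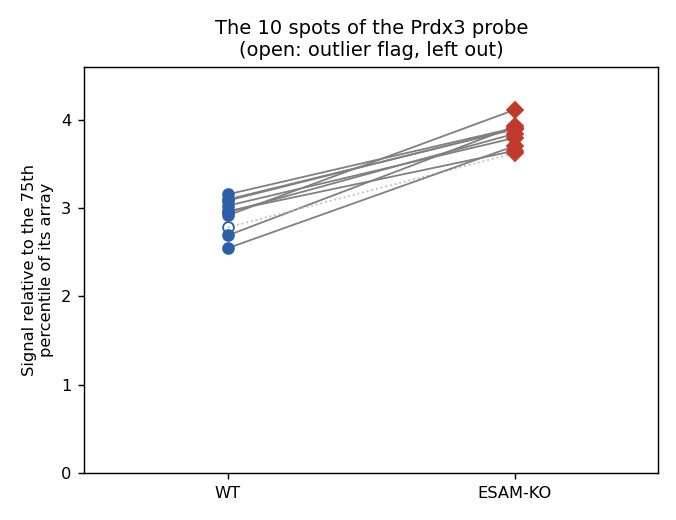
Scaled signal of the 10 spots of the Prdx3 probe on the WT array (circles) and the ESAM-KO array (diamonds), with lines joining the same spot position and open symbols for the spot with an outlier flag. The spots without a flag lie between 2.54 and 3.15 in WT and between 3.65 and 4.11 in ESAM-KO.

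Prdx5 (NM_012021), an atypical peroxiredoxin found in mitochondria, peroxisomes and the cytosol, had the lowest ratio of the members. It read 13.7 in WT and 9.93 in ESAM-KO, which is 1.38-fold lower, with a log2 ratio of -0.47 ± 0.20. It stayed below 0 under all 11 alternatives, between -0.60 and -0.15. Over all genes, 22.1% had a lower ratio than Prdx5, and in the brightest quartile 11.3% did. Prdx3 and Prdx5, both found in mitochondria, thus lay at opposite ends, 0.86 ± 0.29 apart on the log2 scale (scanner errors combined), a 1.82-fold difference that does not change when an array is scaled by a single factor.

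Prdx6 (NM_007453), which has a single reactive cysteine and also acts on phospholipids, had 4 probes. Their log2 ratios were -0.21, -0.30, 0.04 and -0.33 from the brightest to the dimmest, with scanner errors of 0.20 to 0.24. The brightest read 47.4 in WT and 40.9 in ESAM-KO. All 4 were within 2-fold, 1 of them above 0, and without scaling the brightest was at 0.10.

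Of the enzymes that break down peroxide in other ways, Cat (NM_009804), the catalase of peroxisomes and red cells, read 145.0 in WT and 126.1 in ESAM-KO at its brighter probe and 2.86 and 2.53 at the dimmer. The log2 ratios were -0.20 ± 0.20 and -0.18 ± 0.20, so the 2 probes gave the same value within the scanner error. Before scaling both read slightly higher in ESAM-KO, and the log2 ratio of the brighter one was then 0.12.

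Gpx1 (NM_008160), the selenium enzyme that reduces peroxide with glutathione, gave 763.8 for WT and 603.3 for ESAM-KO, and thus a log2 ratio of -0.34 ± 0.20. It was below 0 under all 11 alternatives, but by only -0.02 without scaling. No spot was saturated.

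The superoxide dismutases were close to 0. Sod1 (NM_011434), the copper and zinc enzyme of the cytosol, gave 156.9 for WT and 138.2 for ESAM-KO, and thus a log2 ratio of -0.18 ± 0.20. Sod2 (NM_013671), the manganese enzyme of mitochondria, read 12.8 and 12.3, with a log2 ratio of -0.05 ± 0.20. Both were within their scanner error, and without scaling both were above 0, at 0.14 and 0.26.

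**Figure D3:**
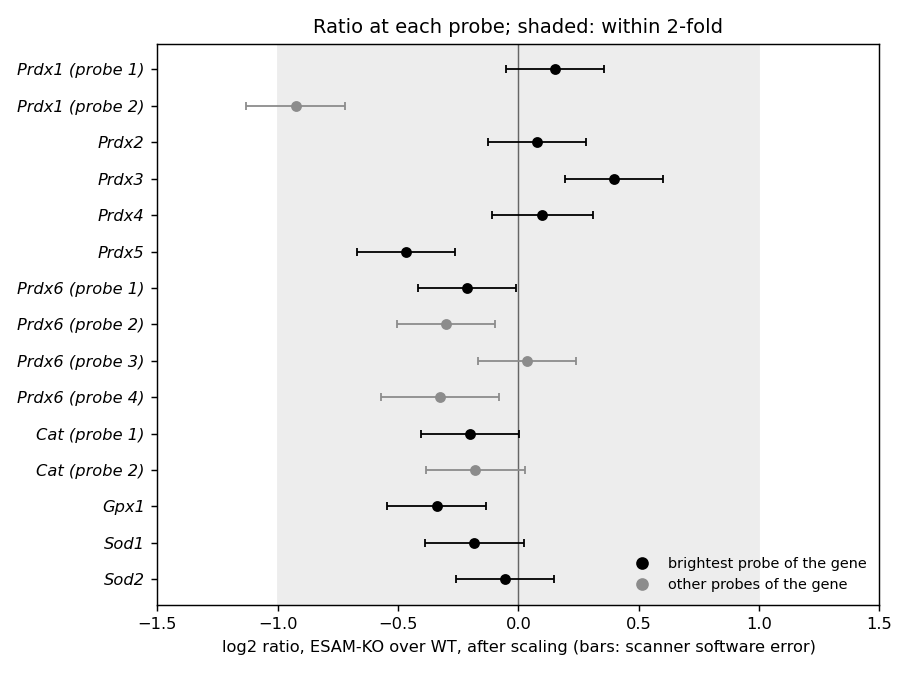
Log2 ratio of ESAM-KO over WT at each probe after scaling, with the scanner software's error as bars; black points are the brightest probe of a gene, grey points its other probes, and the shaded band marks ratios within 2-fold. All 15 points lie in the band, the lowest being the second probe of Prdx1 at -0.93 and the highest Prdx3 at 0.40.

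Ordered from the lowest to the highest ratio, the genes ran Prdx5, Gpx1, Prdx6, Cat, Sod1, Sod2, Prdx2, Prdx4, Prdx1 and Prdx3. None of the 9 pairs of neighbours in this order differed by more than their combined scanner error. The scanner error was 0.20 to 0.21 for every member, in effect a fixed cut, and for Prdx3 it is that of 1 spot. The ratios of 4 genes, Prdx5, Gpx1, Prdx6 and Prdx3, exceeded it. This does not set them apart, as the median size of the ratio was 0.39 over all genes and 0.26 over the brightest quartile. Without scaling, Prdx5, Gpx1 and Prdx6 were within that error, at -0.15, -0.02 and 0.10, while Prdx1, Prdx2, Prdx4 and Sod2 exceeded theirs. By sign, 6 of 10 members were lower in ESAM-KO, against 49.9% of all genes and 48.1% of the brightest quartile, and the median of the members was -0.12, against 0.00 for all genes. The 4 genes above 0, where 50.1% of all genes lay, were Prdx2, Prdx3, Prdx4 and, by its brighter probe alone, Prdx1, whose place in the order is therefore not settled. These signs rest on the scaling: without it 2 of 10 members were lower, against 29% of all genes, and with median scaling 8 were, against 59.2% of all genes. Prdx3 was above 0, and Prdx5 and Gpx1 below 0, under all 11 alternatives, and each of the other members changed sign under 1 of them. With the mean of its probes in place of the brightest, Prdx1 moved to -0.39.

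**Figure D4:**
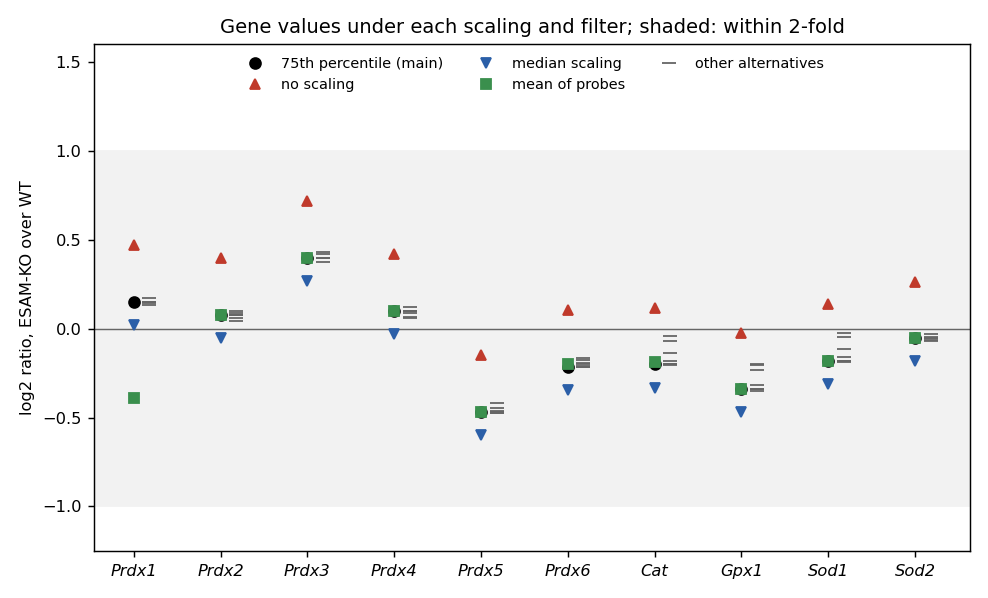
Log2 ratio of each gene with scaling to the 75th percentile (black circles), without scaling (red triangles), with median scaling (blue triangles), with the mean of its probes (green squares) and under the other alternatives (dashes); the shaded band marks ratios within 2-fold. All values stay in the band; leaving out the scaling moves all genes up by 0.32, and the mean of probes moves Prdx1 to -0.39.

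RefSeq promoter windows were at hand for Cat, Gpx1, Prdx1, Prdx2, Prdx3, Prdx4, Prdx5, Sod1 and Sod2. The 250 bases before the start of each gene (build GRCm38.p6) were searched on both strands for the core of the antioxidant response element, TGACNNNGC, which the stress regulator Nrf2 binds. It was present in 2 of the 9 windows, those of Prdx1 and Sod1, and in 10.2% of 32851 windows of all genes. The windows of Prdx1 (chr4:116685349-116685598, plus strand) and Sod1 (chr16:90220512-90220761, plus strand) are shown with the core in capitals, which lies on the minus strand in both. Those of Prdx3 (chr19:60874539-60874788, minus strand) and Prdx5 (chr19:6910107-6910356, minus strand), the members with the highest and the lowest ratio, are shown for comparison and hold no such core. Each is written 5′ to 3′ on the strand of its gene.
Prdx1: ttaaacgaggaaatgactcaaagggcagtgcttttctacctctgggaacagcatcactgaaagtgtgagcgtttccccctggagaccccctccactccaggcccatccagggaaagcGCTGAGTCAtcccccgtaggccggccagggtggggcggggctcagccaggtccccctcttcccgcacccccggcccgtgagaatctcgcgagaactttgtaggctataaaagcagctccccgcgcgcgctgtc
Sod1: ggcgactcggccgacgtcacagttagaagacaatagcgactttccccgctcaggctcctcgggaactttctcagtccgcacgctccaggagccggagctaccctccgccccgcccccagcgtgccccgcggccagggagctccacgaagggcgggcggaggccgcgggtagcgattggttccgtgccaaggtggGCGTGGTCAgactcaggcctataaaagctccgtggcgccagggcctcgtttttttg
Prdx3: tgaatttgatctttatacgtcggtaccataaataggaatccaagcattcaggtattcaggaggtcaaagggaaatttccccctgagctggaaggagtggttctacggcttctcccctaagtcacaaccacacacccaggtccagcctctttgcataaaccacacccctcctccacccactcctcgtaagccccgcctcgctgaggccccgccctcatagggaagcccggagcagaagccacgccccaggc
Prdx5: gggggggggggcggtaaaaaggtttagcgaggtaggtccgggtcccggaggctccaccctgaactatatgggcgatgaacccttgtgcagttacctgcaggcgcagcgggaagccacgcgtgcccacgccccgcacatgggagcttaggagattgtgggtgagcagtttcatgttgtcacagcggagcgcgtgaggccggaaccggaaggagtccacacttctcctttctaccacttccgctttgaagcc

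In these sequences the core starts 133 bases before the start of Prdx1 and 56 bases before that of Sod1. The Prdx1 window also holds the TATA motif TATAAA, 29 bases before the start, as does that of Sod1, 37 bases before it, while that of Prdx3 holds it on the minus strand, and 12.4% of all windows hold this motif on either strand. The GATA motifs AGATAA and TGATAA and the FOXO motif TGTTTAC were in none of the 9 windows, and in 9.99%, 7.94% and 3.17% of all windows. CCAAT was found in 4 of the 9, those of Cat, Prdx4, Sod1 and Sod2, and in 33.8% of all. The E-box CACGTG was found in that of Prdx4, and in 6.02% of all. The log2 ratios of the genes whose windows hold the Nrf2 core were 0.15 ± 0.20 for the brighter Prdx1 probe, -0.93 ± 0.20 for the dimmer one and -0.18 ± 0.20 for Sod1.

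The wider antioxidant system was described with 7 lists holding 78 genes, of which 66 had a ratio. Of these, 3 were past 2-fold higher and 5 past it lower in ESAM-KO, together 12.1%, against 15.4% of all genes. A gene not well above background on 1 array is given by a bound, which compares the bright array with the lowest detectable signal of the other.

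The thioredoxin system, which returns peroxiredoxins to their active form, had a ratio for all 15 genes, with a median of 0.04. Higher by more than 2-fold were Nxn, nucleoredoxin, at 1.33 ± 0.20, and Txnrd1, the cytosolic thioredoxin reductase, at 1.01 ± 0.20. Txnrd1 read 10.07 in WT and 20.2 in ESAM-KO, which is 2.01-fold, and was within 2-fold with median scaling, quantile normalization and normexp, down to 0.88. Glrx, glutaredoxin, was lower at -1.10 ± 0.20 and within 2-fold without scaling, at -0.78, and with normexp, at -0.96. The other named partners in this list were within 2-fold. Txn1, cytosolic thioredoxin, was at 0.26, and its mitochondrial counterparts Txn2 and Txnrd2 were at -0.03 and 0.19. Srxn1, sulfiredoxin, which repairs overoxidised peroxiredoxins, was at 0.12, and Txnip, the thioredoxin inhibitor, was at 0.04 at the brighter of its probes and at 0.74 at the dimmer. At their brightest probe the remaining genes of the list were within 2-fold too, the lowest of them being Txnrd3, a further thioredoxin reductase, at -0.74.

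In the glutathione system, which serves Gpx1 and Prdx6, 12 of 18 genes had a ratio, with a median of -0.04. Mgst2, a microsomal glutathione transferase, was lower at -2.27 ± 0.32, with 0.39 in WT and 0.08 in ESAM-KO, and within 2-fold with normexp, at -0.85. Ggt1, which cleaves extracellular glutathione, was not well above background in WT and at least 2.27-fold higher in ESAM-KO, a bound that normexp lowered to 0.51 on the log2 scale. Glutathione reductase (Gsr) was at 0.10 and 0.09 in its 2 probes, the subunits of the enzyme that limits glutathione synthesis, Gclc and Gclm, were at -0.03 and -0.44, and Gpx4, which reduces lipid peroxides, was at 0.01. Gpx5, Gpx6, Gpx7, Gpx8, Slc7a11 and Mgst1 were below the detection limit on both.

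Among 4 partners of the superoxide dismutases, 3 had a ratio, none past 2-fold, with a median of 0.48. Ccs, the chaperone that loads copper into Sod1, gave 0.82 for WT and 1.14 for ESAM-KO, and thus a log2 ratio of 0.48 ± 0.21, whereas Sod1 was at -0.18. Sod3, the extracellular dismutase, was below the detection limit on both.

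Of 21 regulators and targets of Nrf2, 20 had a ratio, with a median of 0.00. At their brightest probe Txnrd1 was the only one past 2-fold, though not with the settings named above. The dimmest probe of Mafg was at 1.15, but its brighter probes were at -0.25 and -0.01. Nfe2l2, which encodes Nrf2, was at 0.01, its inhibitor Keap1 at 0.41 and the repressor Bach1 at -0.41. The targets Hmox1, heme oxygenase, and Nqo1, a quinone reductase, were at -0.69 and -0.26, and the second Hmox1 probe was at -0.51. The core TGACNNNGC was present in the windows of 6 of the 19 genes of this list with a window, Txnrd1, Gclm, G6pdx, Mafg, Mafk and Nfe2l2 itself, against 10.2% of all windows. The Foxo list, regulators of Sod2 and Cat in blood cells, had 7 of 8 genes with a ratio, none past 2-fold and a median of 0.33, which was -0.14 with the mean of probes. Foxo3 was at -0.39, and Foxo1 was at 0.53 at its brighter probe but at -1.14 at the dimmer. All 7 genes of selenoprotein synthesis, on which Gpx1 depends, were within 2-fold at their brightest probe, with a median of 0.44. The second probe of Secisbp2, which helps to insert selenocysteine, was at 1.19, and 1 gene of the list was past 2-fold in the unscaled data and 1 when probes were averaged.

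The sources of oxidants had the lowest median of the 7 lists. Of 10 genes, 6 had a ratio, all below 0, and 3 were lower by more than 2-fold, with a median of -1.22. Mpo, myeloperoxidase, which uses hydrogen peroxide to make hypochlorous acid in neutrophils, gave 8.45 for WT and 0.60 for ESAM-KO, and thus a log2 ratio of -3.82 ± 0.21. Ncf4 and Cybb, subunits of the phagocyte NADPH oxidase, were at -3.26 ± 0.32 and -1.49 ± 0.22, and Cybb was within 2-fold with normexp, at -0.93. Mpo is also in the neutrophil marker list, 11 of whose 12 genes were past 2-fold lower too, and the part of neutrophils in these values was not tested. Duox2 had no named probe, and Nox4, Duox1 and Xdh were not well above background.

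**Figure D5:**
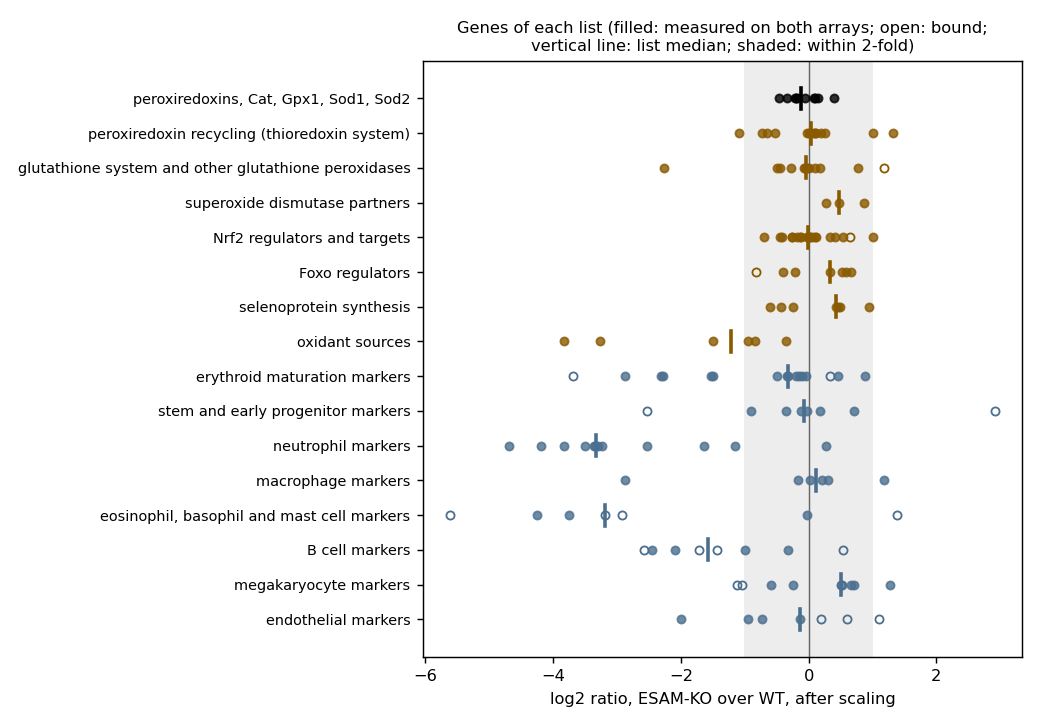
Log2 ratio of each gene of the 10 antioxidant enzymes (black), the 7 pathway lists (brown) and the 8 marker lists (blue); filled points were measured on both arrays, open points are bounds, vertical lines are list medians and the shaded band marks ratios within 2-fold. The antioxidant enzymes cluster near 0 with a median of -0.12, while the oxidant sources and the neutrophil markers have medians of -1.22 and -3.32.

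The pools differed in markers of other cells. In a bulk sample, fewer cells of a type and less RNA per cell cannot be told apart. All 12 neutrophil markers were well above background in both genotypes, and 11 of them were past 2-fold lower in ESAM-KO, Csf3r being the exception at 0.28. Their median was -3.32 and their summed scaled signal 546.8 in WT and 341.7 in ESAM-KO. A sum over probes follows its brightest, and without Csf3r the other 11 summed to 297.8 and 40.2. Of 10 markers of eosinophils, basophils and mast cells, 7 had a ratio, 5 were past 2-fold lower and 1 past it higher, with a median of -3.19 and sums of 18.9 and 8.19, or 11.5 and 0.88 without Gata2, its brightest gene. Of these 7 ratios 4 are bounds, and 2 genes were past 2-fold where detection on both arrays was required. Cpa3, Mcpt8 and Fcer1a were below the detection limit on both. Of 9 B cell markers, 8 had a ratio and 5 were past 2-fold lower, with a median of -1.57 and sums of 3.06 and 0.95, and Ms4a1 was not above background. Of these 8 ratios 4 are bounds. With normexp 1 B cell marker was past 2-fold and the median was -0.54, and 2 were past it where detection on both arrays was required. The part of these cells in the ratios of Prdx1 to Prdx6, Cat, Gpx1, Sod1 and Sod2 was not tested.

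Of 16 erythroid maturation markers, all had a ratio, 6 were past 2-fold lower and none higher, with a median of -0.33 (-0.01 without scaling) and sums of 213.9 and 124.0, or 129.3 and 112.4 without Slc4a1. Alas2, the first enzyme of heme synthesis in red cells, was at -1.53. The remaining lists were mixed. Of 10 stem and early progenitor markers, 8 had a ratio, with 1 past 2-fold in each direction. The same was found for 6 macrophage markers with a ratio of 11, of which Mrc1, C1qc and Cd163 were below the limit, Cd68 had no named probe and Adgre1, detected in ESAM-KO only, gave no usable bound, and for 7 endothelial markers of 8, of which Cdh5 was below the limit. Of 9 megakaryocyte markers, all had a ratio, with 1 past 2-fold higher and 2 lower. Some of these ratios are bounds. Where detection on both arrays was required, 0 stem, 1 endothelial, 1 megakaryocyte and 2 macrophage markers were past 2-fold. The medians were -0.07, 0.12, -0.13 and 0.51 in the order stem, macrophage, endothelial and megakaryocyte. The sums of these 4 lists were 26.6 and 22.6, 35.0 and 31.5, 12.0 and 10.2, and 8.13 and 8.81, in WT and ESAM-KO.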

How the data were processed

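Sorted pre CFU-E of WT and ESAM-KO animals were each hybridised to 1 SurePrint G3 mouse array after 20 ng of RNA had been amplified and labelled with Cy3. The submitters' processing notes name Agilent Feature Extraction 10.10.1.1. The authors deposited its spot intensity values, background-subtracted and detrended by that software, with no scaling from array to array. Their series table is a rounded copy (differences of at most 0.497%) and served as an alternative. The study's methods give a 2-fold criterion. Amplification from little RNA and the scaling can both shift ratios.

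Control spots and 254 outlier-flagged spots were left out. For each probe, log2 intensity less the log2 75th percentile of the array was averaged over spots, and detection required over 50% of its spots to be called well above background by the scanner software. Accessions matched RefSeq without versions (GRCm38.p6, for names and promoters) for 27235 of 55680 probes. Each gene was taken at its brightest probe. The number of arrays, 2, limits the precision. The members and gene lists were chosen with earlier results of these data known. Named were all members, Esam, a fixed set of partner genes and every pathway gene past 2-fold (at most 4 each way); Csf3r, Kit, Gata1, Klf1, Epor, Ly6a, Slc4a1, Alas2, Gata2, Txnrd3, Foxo1 and Secisbp2 were named after their values were seen, as were the genes holding the promoter motif and those below detection. With 2 arrays no genes could be ranked by likeness of pattern. Alternatives were other scalings, normexp (offset 50, on median spot signals, mean signals not being in the files used), the series table, 2 other filters, outlier spots kept, the mean of probes and other fold thresholds. Python 3.11.15, pandas 2.3.3, numpy 2.4.6, R 4.3.3 and limma 3.58.1 (normalization only) were used, and the scripts were tested on simulated data. Some items are not reported here.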

Additional observations from a re-analysis of the deposited data

How the results depend on the processing

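The number of members past 2-fold stayed at 0 under each other scaling, filter, probe summary and background correction. With each gene at its brightest probe and the scaling used in Results, it was also 0 at thresholds of 1.5-fold and 3-fold. The 0 at 3-fold follows from the 0 at 2-fold. The 0 at 1.5-fold did not hold under every other scaling. Without scaling Prdx3 was 1.64-fold higher in ESAM-KO. With median scaling Prdx5 was past 1.5-fold lower, at a log2 ratio of -0.60. Leaving out the scaling, which by construction adds the same 0.32 to all log2 ratios, moved the median of the members from -0.12 to 0.20 and the number of members lower in ESAM-KO from 6 to 2, and gave log2 ratios of 0.47 for Prdx1, 0.40 for Prdx2, 0.71 for Prdx3, 0.42 for Prdx4, -0.15 for Prdx5, 0.10 for Prdx6, 0.12 for Cat, -0.022 for Gpx1, 0.14 for Sod1 and 0.26 for Sod2. With the mean of its probes, Prdx1 moved to -0.39, since its dimmer probe enters. The other 99 of 110 member values moved by less than the scanner error, but many of them could not move. All 15 member probes were above background on both arrays, so the 2 other filters left every member as it was. Keeping outlier spots could change Prdx3 alone, and the mean of probes could not change the 7 members with 1 probe. The count of 99 is therefore no measure of how firm the values are. Over all genes the median shifted by 0.31 in the unscaled data, by -0.13 under median scaling and by -0.14 when dim probes were kept, and by -0.02 to 0.02 in the others. Of the medians of the lists, 142 of 165 moved by less than the median scanner error of their genes, as did 142 of 165 of their counts past 2-fold by less than 1.5 times. The medians of the thioredoxin and macrophage lists were below 0 with median scaling, at -0.09 and -0.01, and those of the glutathione, stem and endothelial lists above 0 without scaling, at 0.27, 0.25 and 0.19. With normexp the counts past 2-fold went from 3 to 1 in the thioredoxin list, from 2 to 0 in the glutathione list and from 3 to 0 in the megakaryocyte list. Over all genes, 988 were past 2-fold higher and 1191 past it lower, and 1804 and 729 without scaling, 751 and 1513 with median scaling, 233 and 479 with normexp, and 1800 and 2308 without the filter. No paired analysis was possible because there was a single array for each genotype.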
